A study of Mus musculus with 18 samples.

Results

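The Wnt and beta-catenin pathway components examined here are 10 genes chosen by name: the receptor-level genes Lrp6, Rnf43 and Znrf3, the destruction complex genes Axin1, Axin2, Apc and Gsk3b, and the nuclear genes Ctnnb1, Tcf7 and Lef1. The rule uses no measured value, though the genes were chosen with earlier results of these data known. All 10 were found among 35865 genes listed under a single name in the RNA-seq table, and all 10 passed the filter on low values, with no member under 5.1 TPM in any library. TPM is a transcript abundance scaled by gene length and by library total, so levels of different genes can be set side by side where reads cover whole transcripts. The methods name both a 10X Genomics Next GEM assay and an Illumina RNA-seq kit. Which of them gave these reads, and how they cover transcripts, was not checked.

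RNA-seq was performed on YFP+ Tregs, the CD4+ T cells that hold other immune cells in check, sorted from spleens of 2 Chd8-/- and 2 WT mice. Chd8-/- mice carried CHD8Flox/FloxFoxp3YFP-Cre by the labels, so that Cre, fused to YFP and driven from the Foxp3 gene on the X chromosome, deletes Chd8 in Tregs. The labels of the libraries used as WT name CHD8flox/floxFoxp3YFP-Cre/+, with both Chd8 alleles floxed and heterozygous Cre. The study describes its WT mice as without floxed Chd8, and describes YFP+ Tregs of females with the labelled genotype as CHD8-deficient. Taken literally, the labels would make the WT libraries Chd8-deleted as well. The grouping of the study was kept, and the genotype of these mice was not tested. The labels name a Poly IC injection for both groups and no age, and the methods describe young, sex-matched littermates several weeks old.

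Wnt proteins bind a Frizzled receptor together with the co-receptor LRP5 or LRP6. Without Wnt, a destruction complex of AXIN, APC and the kinases GSK3 and CK1 marks beta-catenin for degradation, and with Wnt, beta-catenin accumulates and joins TCF and LEF factors on DNA. In T cells TCF-1 (Tcf7) and LEF-1 are abundant and act partly without beta-catenin, and CHD8 itself was described early as a beta-catenin-binding protein that restrains TCF-driven transcription. The comparison of Chd8-/- with WT libraries asks whether RNA of the pathway's components differs when CHD8 is deleted in Tregs. From this RNA-seq the study reports, without showing the data, that the Wnt pathway was unaffected. It proposes that CHD8 acts on p53 rather than on Wnt and beta-catenin signaling in Tregs.

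Sequence is shown for a gene that lay lower and one that lay higher in Chd8-/- Tregs, Lef1 and Rnf43, to set their promoters side by side. RefSeq promoter windows of GRCm38.p6, which run from 250 bases before to 50 bases after an annotated start, were matched for 6 of the 10 genes, with 12 windows in all. Axin1, Apc, Znrf3 and Lrp6 were not matched, and the Tcf7 windows overlap annotated exons and are not printed. The 250 bases before the first Lef1 start (chr3:131110047-131110296, plus strand) and before the first Rnf43 start (chr11:87662837-87663086, plus strand) are printed with CG dinucleotides in capitals.
Lef1: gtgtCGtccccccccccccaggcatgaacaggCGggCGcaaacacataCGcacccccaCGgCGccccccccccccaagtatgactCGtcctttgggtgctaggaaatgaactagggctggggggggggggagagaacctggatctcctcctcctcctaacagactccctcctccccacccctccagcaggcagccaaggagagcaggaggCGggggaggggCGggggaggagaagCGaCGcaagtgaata
Rnf43: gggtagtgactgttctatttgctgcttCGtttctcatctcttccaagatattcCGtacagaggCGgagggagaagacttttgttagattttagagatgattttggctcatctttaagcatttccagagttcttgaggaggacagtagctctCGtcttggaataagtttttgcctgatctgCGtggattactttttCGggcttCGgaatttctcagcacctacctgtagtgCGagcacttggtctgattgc

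The Lef1 stretch was 66.4% G or C with 11 CG dinucleotides, and the Rnf43 stretch was 44.4% G or C with 8. Over all windows the median was 6, and 35.6% of windows held at least 11 and 43.0% at least 8. The first windows of Tcf7 and Ctnnb1 held 37 and 35, which 2.2% and 2.97% of windows reached. The core letters of a TCF or LEF site, CTTTGAA or CTTTGAT, were searched on both strands in the full windows. They were in 0 of the 12 windows of the members and in 8.65% of all 32851 windows. A missing match says only that these letters are not in these windows.

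The libraries were checked first. Chd8 had 24.7 and 27.6 TPM in WT and 14.9 and 11.4 TPM in Chd8-/- libraries, over the whole gene with the floxed exons not separated. Foxp3, Il2ra, Ctla4, Cd4 and the other T cell and Treg markers were above 0 in every library, led by Cd3e, and the sum of these 8 genes lay between 3965.9 and 5020.0 TPM. Chd8-/- replicate 2 stood apart: 6 erythroid genes summed to 1989.7 TPM there, to 8.7 TPM in Chd8-/- replicate 1 and to 385.2 and 351.9 TPM in WT, and 8 myeloid genes to 1438.9 TPM, against 25.7, 106.6 and 79.5 TPM. The most abundant of these were Hbb-bs, listed at 579.9 TPM in Chd8-/- replicate 2 and 0 in replicate 1, and Lyz2, at 1360.3 and 20.0 TPM. Of the myeloid genes 4 were at 0 in Chd8-/- replicate 1 and 0 in replicate 2. The 6 B cell genes summed to 139.8 TPM in Chd8-/- replicate 2 and to between 29.7 and 43.9 TPM in the others, led by Cd79a, and the 7 CD8 T and NK genes, led by Nkg7, and 6 stromal and endothelial genes, led by Pecam1, summed to between 60.4 and 96.2 and between 10.7 and 30.0 TPM. The part of these cells in the results was not tested, so values without each Chd8-/- library are given beside the members. The legends of the study describe both sexes in each genotype, while Xist was listed at 500.2 to 843.3 TPM and 4 Y-linked genes at 0 in all 4 libraries.

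On the log2(TPM + 1) scale, 15240 genes were compared with limma (two-sided, with a mean-variance trend and p-values adjusted by Benjamini-Hochberg). None of the 10 components reached an adjusted p-value under 0.05 (0 of 10), nor did any gene tested (0 genes or 0%, smallest adjusted p = 0.0807 in limma, with 1555 genes at an unadjusted p-value under 0.05). With 2 libraries per genotype the smallest p-value of an exact permutation test is 0.333. Before adjustment, p-values under 0.05 were obtained for 1 component that lay higher in Chd8-/- Tregs, Rnf43, against 3.9% of all genes tested, and for 2 that lay lower, Tcf7 and Znrf3, against 6.3%. The genotypes did not overlap in 8 of 10 components. The Chd8-/- libraries lay above in 2, Rnf43 and Gsk3b, against 14.8% of all genes, and below in 6, Tcf7, Lef1, Lrp6, Znrf3, Axin1 and Apc, against 27.8% of all genes. After quantile normalization, which made the libraries' distributions equal, 3 components lay above and 4 below, and over all genes the shares were 21.0% and 21.3%. The median log2 fold change was −0.36 over the components and −0.15 over all genes, and 0 components passed a log2 fold change of 1 in either direction, which 16.7% of all genes did.

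**Figure D1:**
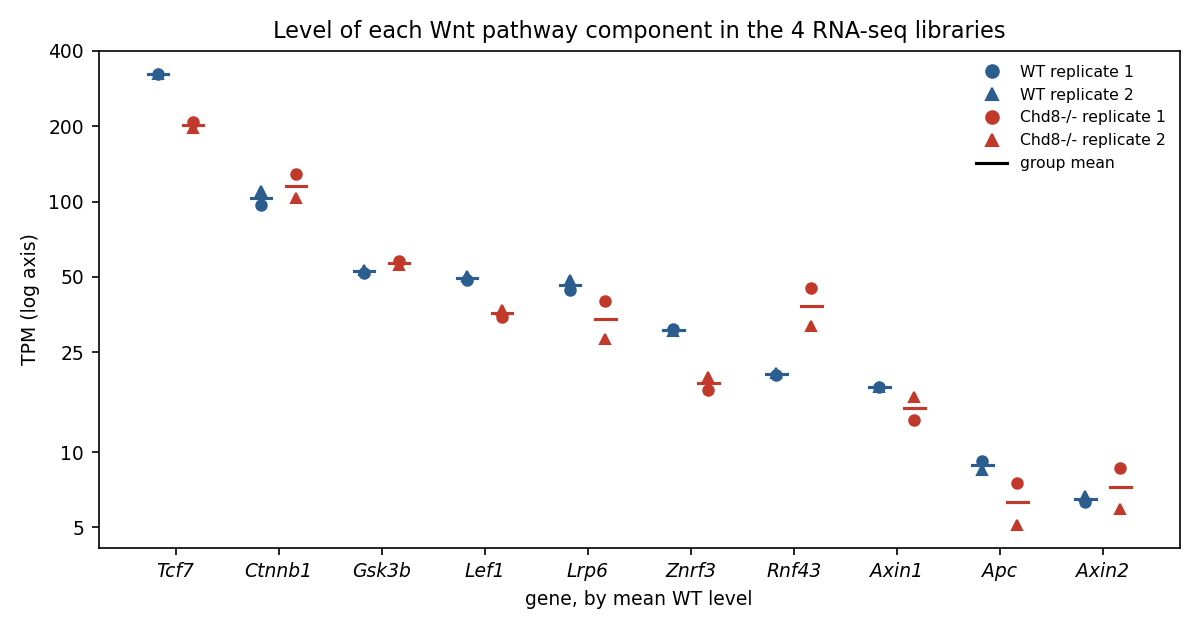
TPM on a log axis for each of the 10 components in the 4 libraries, ordered by the mean WT level. Circles and triangles are replicates 1 and 2, blue for WT and red for Chd8-/-, and lines are group means of 2 libraries. Tcf7 sits at 324.4 and 323.8 TPM in WT and lower, at 208.5 and 197.1 TPM, in Chd8-/-, Rnf43 sits higher in Chd8-/-, and the Ctnnb1 and Axin2 libraries overlap.

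Tcf7, at chr11:52246527-52283383 (minus strand, GRCm38 as for all genes here), encodes TCF-1, the TCF factor of T cells. It had 324.4 and 323.8 TPM in WT and 208.5 and 197.1 TPM in Chd8-/- libraries, the most abundant of the 10 components in both genotypes. The libraries of each genotype lay close together and the genotypes did not overlap. The log2 fold change was −0.67 (standard error 0.16, 95% interval −1.10 to −0.25, n = 2 per genotype, unadjusted p = 0.0105, limma adjusted p = 0.417), or 1.6 times as much in WT. It was −0.63 without Chd8-/- replicate 2, the library with the most erythroid and myeloid RNA, and −0.72 without replicate 1. RNA of long TCF-1 forms, which bind beta-catenin, and of short forms, which do not, is summed in these values.

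Lef1, at chr3:131110297-131224357 (plus strand), encodes the related factor LEF-1. It had 48.8 and 50.3 TPM in WT and 34.6 and 36.9 TPM in Chd8-/- libraries. The genotypes did not overlap, and both Chd8-/- libraries lay below. The log2 fold change was −0.46 (standard error 0.21, 95% interval −1.03 to 0.11, n = 2 per genotype, limma adjusted p = 0.554), so that the interval includes 0. It was −0.51 without Chd8-/- replicate 2 and −0.42 without replicate 1.

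Ctnnb1, at chr9:120933400-120960507 (plus strand), encodes beta-catenin, whose amount is set largely at the protein level. It had 96.6 and 109.9 TPM in WT and 128.3 and 102.9 TPM in Chd8-/- libraries. The genotypes overlapped. The log2 fold change was 0.16 (95% interval −0.42 to 0.73, n = 2 per genotype, limma adjusted p = 0.825), and its sign depended on Chd8-/- replicate 1, with 0.31 without replicate 2 and −0.002 without replicate 1. In bulk samples fewer cells of a type and less RNA per cell cannot be told apart for any of these genes.

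Rnf43 and Znrf3 encode related membrane ubiquitin ligases that remove Frizzled receptors and LRP6 from the cell surface, and both are known as feedback targets of the pathway. Their RNA lay on opposite sides of WT in Chd8-/- Tregs. Rnf43, at chr11:87663087-87735539 (plus strand), had 20.3 and 20.7 TPM in WT and 45.1 and 31.8 TPM in Chd8-/- libraries. Both Chd8-/- libraries lay above WT but stood apart from each other. The log2 fold change was 0.85 (standard error 0.29, 95% interval 0.09 to 1.62, n = 2 per genotype, unadjusted p = 0.0363, limma adjusted p = 0.470), with 1.10 without Chd8-/- replicate 2 and 0.61 without replicate 1.

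Znrf3, at chr11:5276329-5444847 (minus strand), had 31.1 and 30.3 TPM in WT and 17.7 and 20.0 TPM in Chd8-/- libraries. Both Chd8-/- libraries lay below WT. The log2 fold change was −0.68 (standard error 0.25, 95% interval −1.35 to −0.01, n = 2 per genotype, unadjusted p = 0.0479, limma adjusted p = 0.487). It was −0.76 without Chd8-/- replicate 2 and −0.59 without replicate 1.

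Lrp6, the co-receptor, at chr6:134446476-134566913 (minus strand), had 44.5 and 48.7 TPM in WT and 39.9 and 28.3 TPM in Chd8-/- libraries. The Chd8-/- libraries lay below WT, replicate 1 by little. The log2 fold change was −0.46 (95% interval −1.19 to 0.27, n = 2 per genotype, limma adjusted p = 0.625). It was −0.22 without Chd8-/- replicate 2 and −0.70 without replicate 1, so its size rests mainly on replicate 2.

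Of the destruction complex, Gsk3b, the kinase that phosphorylates beta-catenin, lies at chr16:38089001-38246084 (plus strand). It had 52.0 and 53.5 TPM in WT and 58.1 and 56.0 TPM in Chd8-/- libraries. The Chd8-/- libraries lay above WT by a small margin, with a log2 fold change of 0.11 (95% interval −0.43 to 0.65, n = 2 per genotype, limma adjusted p = 0.869), or 0.14 without Chd8-/- replicate 2 and 0.09 without replicate 1. Axin1, the scaffold of the complex, at chr17:26131217-26195811 (plus strand), had 18.2 and 18.1 TPM in WT and 13.4 and 16.6 TPM in Chd8-/- libraries. Both lay below WT, with a log2 fold change of −0.27 (95% interval −1.03 to 0.50, n = 2 per genotype, limma adjusted p = 0.777), or −0.41 without Chd8-/- replicate 2 and −0.12 without replicate 1.

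Apc, the tumor suppressor that binds beta-catenin within the complex, at chr18:34220297-34322190 (plus strand), had 9.2 and 8.5 TPM in WT and 7.5 and 5.1 TPM in Chd8-/- libraries. Its log2 fold change was −0.45 (95% interval −1.44 to 0.54, n = 2 per genotype, limma adjusted p = 0.709), and it was −0.21 without Chd8-/- replicate 2 and −0.69 without replicate 1. After quantile normalization the libraries of Apc and of Axin1 overlapped between the genotypes, at log2 fold changes of −0.20 and −0.10. Axin2, the second scaffold and a widely read target of beta-catenin, at chr11:108917828-108950783 (plus strand), had 6.3 and 6.7 TPM in WT and 8.6 and 5.9 TPM in Chd8-/- libraries. The Chd8-/- libraries lay on either side of WT, and the log2 fold change was 0.12 (95% interval −0.89 to 1.12, n = 2 per genotype, limma adjusted p = 0.931). It was 0.36 without Chd8-/- replicate 2 and −0.12 without replicate 1. After quantile normalization it was 0.37 and both Chd8-/- libraries lay above WT.

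**Figure D2:**
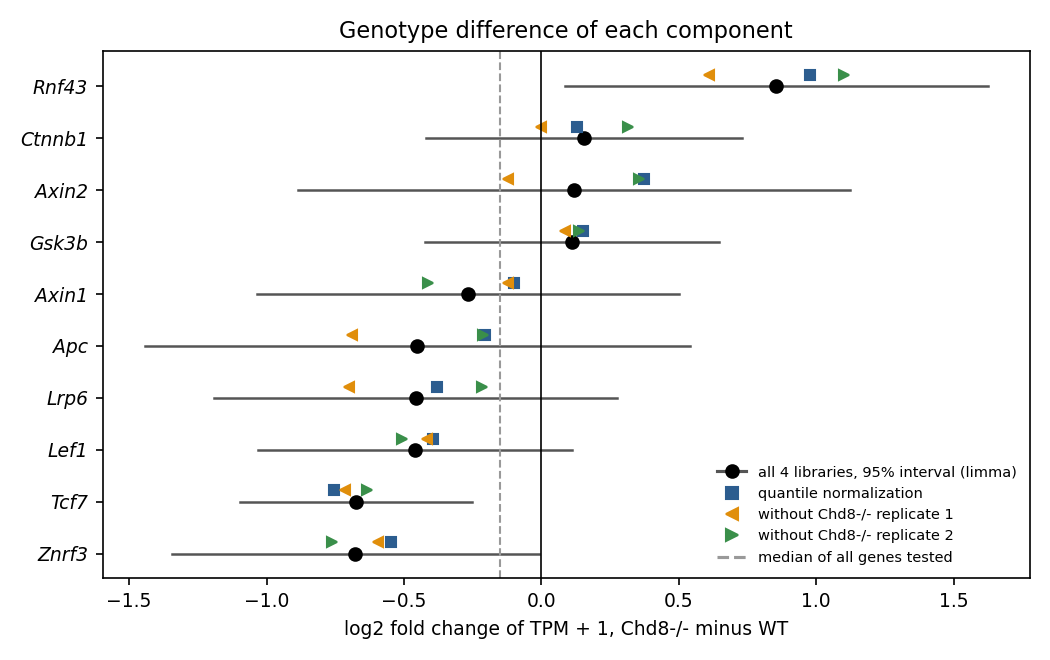
Log2 fold change of TPM + 1, Chd8-/- minus WT, for the 10 components, with 95% intervals from limma (black) and the values after quantile normalization or without 1 Chd8-/- library (colored marks). The intervals of Tcf7, Znrf3 and Rnf43 exclude 0 before adjustment, and the marks of Axin2 and Ctnnb1 lie on both sides of 0.

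By level, the order in WT Tregs was Tcf7, Ctnnb1, Gsk3b, Lef1, Lrp6, Znrf3, Rnf43, Axin1, Apc and Axin2, from 324.1 TPM ± 0.424 (SD, n = 2) down to 6.5 TPM ± 0.283 (SD, n = 2). Neighbours in this order did not overlap between the WT libraries, though Lef1 and Lrp6 were separated only by 48.8 against 48.7 TPM. In Chd8-/- Tregs 3 pairs of neighbours were no longer in separate ranges in that order, Lef1 with Lrp6, Znrf3 with Rnf43 and Apc with Axin2. For Znrf3 and Rnf43 the order was turned, with 18.85 TPM ± 1.63 (SD, n = 2) for Znrf3 and 38.45 TPM ± 9.40 (SD, n = 2) for Rnf43 in Chd8-/- Tregs, against 30.7 TPM ± 0.566 and 20.5 TPM ± 0.283 in WT. The means of Apc and Axin2 were turned too, at 6.3 and 7.25 TPM in Chd8-/- Tregs against 8.85 and 6.5 TPM in WT. The ranges of Apc and Axin2 overlapped in Chd8-/- Tregs.

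A ratio of 2 genes within a library does not depend on the scaling between libraries. Ratios were taken for 5 pairs of related genes that were chosen after the values had been seen. The ratio of Rnf43 to Znrf3 was 2.55 and 1.59 in Chd8-/- and 0.653 and 0.683 in WT libraries. Every Chd8-/- library had more Rnf43 than Znrf3 and every WT library less. The mean log2 ratio was 1.01 ± 0.48 (SD, n = 2) against −0.58 ± 0.05 (SD, n = 2), a difference of 1.59 (two-sided exact permutation test, p = 0.333, the smallest this design allows). Since each gene lay apart from WT on opposite sides, their ratio had to separate the genotypes, and the test adds nothing to that.

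The ratio of Gsk3b to Gsk3a, its near twin, was 1.79 and 1.23 in Chd8-/- and 0.927 and 0.985 in WT libraries (difference of log2 ratios 0.63, two-sided exact permutation test, p = 0.333). These genes too lay apart from WT on opposite sides, so this ratio also had to separate. Tcf7 to Lef1 was 6.03 and 5.34 in Chd8-/- and 6.65 and 6.44 in WT libraries. The genotypes did not overlap, but the difference was −0.21 on the log2 scale (two-sided exact permutation test, p = 0.333), smaller than the log2 fold change of either gene. For Axin1 to Axin2 and Lrp6 to Lrp5 the genotypes overlapped (two-sided exact permutation tests, p = 0.667 and p = 1.0). Adjusted over the 5 pairs, no p-value can pass 0.05 in this design.

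**Figure D3:**
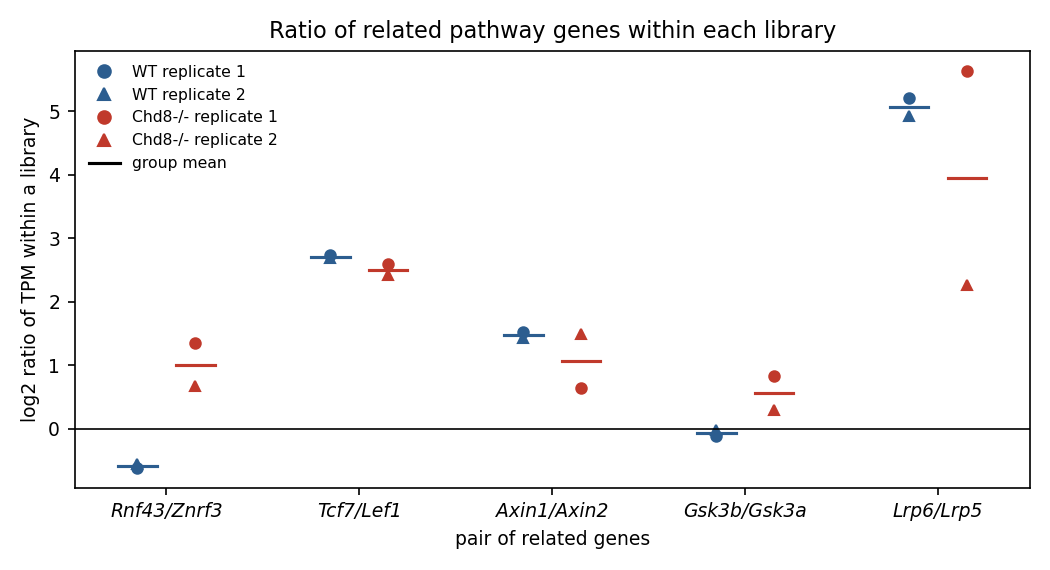
Log2 ratio of TPM between related genes within each library, with circles and triangles for replicates 1 and 2, blue for WT and red for Chd8-/-, and lines for means of 2 libraries. The Rnf43 to Znrf3 ratio is above 0 in both Chd8-/- and below 0 in both WT libraries, and the Lrp6 to Lrp5 ratio spreads widely between the Chd8-/- libraries.

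Other genes of the pathway were read from lists that were written with earlier results of these data known. Their 111 names gave 110 genes in the table. Aside from the 10 components, 50 of these genes stayed under 1 TPM in every library and 46 passed the filter. Over the 56 genes tested, components included, 0 passed the adjusted threshold of 0.05 in limma, and at an unadjusted p-value under 0.05 there was 1 higher, Rnf43, against 3.9% of all genes, and 4 lower, Tcf7, Znrf3, Wnt2b and the deleted gene Chd8 itself, against 6.3%. The Chd8-/- libraries lay above WT in 4 of the 56, against 14.8% of all genes, and below in 24, against 27.8%. The median log2 fold change of these 56 genes was −0.27 against −0.15 over all genes, and −0.11 after quantile normalization. Wnt10a passed the filter through the WT libraries only, at 1.3 and 1.1 TPM against 0.1 and 0.2 TPM in Chd8-/- Tregs.

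Of the Wnt ligands, 6 of 19 were tested and 5 were listed at 0 in all libraries. Wnt2b, the most abundant, had 22.1 and 23.8 TPM in WT and 11.4 and 12.3 TPM in Chd8-/- libraries (log2 fold change −0.90, unadjusted p = 0.0264, adjusted p = 0.455 from limma). Frizzled receptors were scarce, with 2 of 10 tested and no value above 4.3 TPM, so that Lrp6 far exceeded them. Wls, which carries Wnt proteins to the surface and was named after its values were seen, had overlapping libraries with a mean of 36.1 TPM in Chd8-/- and 32.5 TPM in WT Tregs.

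In the destruction complex list, 11 of 12 genes were tested, with both Chd8-/- libraries below WT in 7, against 27.8% of all genes, above in 1 (Gsk3b), against 14.8%, and a median log2 fold change of −0.40, or −0.20 after quantile normalization. Gsk3a had 56.1 and 54.3 TPM in WT and 32.5 and 45.6 TPM in Chd8-/- libraries (log2 fold change −0.51, adjusted p = 0.582 from limma). The tankyrases, which mark AXIN for degradation, had means of 34.05 TPM (Tnks) and 65.6 TPM (Tnks2) in Chd8-/- and 51.75 and 84.25 TPM in WT Tregs, and the Tnks2 libraries overlapped. Csnk1d, a CK1 kinase among the Dishevelled and receptor-level genes, had means of 47.5 and 58.05 TPM. None of the 8 genes of that list passed an unadjusted p-value of 0.05 (0 genes), and their median log2 fold change was −0.23, or 0.01 after quantile normalization.

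Medians of the small lists moved with the scaling: for the ligands the median was −0.23, or 0.24 after quantile normalization. For the 3 tested genes of the list of secreted antagonists and their partners, Sfrp2, Kremen1 and Kremen2, it was −0.03, or 0.32. Of these, Sfrp2 had a log2 fold change of 0.07. For 5 receptors and co-receptors it was −0.46, and for 3 genes of the R-spondin and ligase list, with Rnf43 and Znrf3 on opposite sides, 0.30, or −0.38 and 0.67 after quantile normalization. The median of these 3 genes is the value of Lgr4 alone, which lies between the 2 ligases. Lgr4 sat near the filter of 1 TPM, with 0.7 and 1.5 TPM in Chd8-/- and 1.0 and 0.4 TPM in WT libraries. This median was 0.02 without Chd8-/- replicate 2, 0.04 without WT replicate 2, 0.58 without Chd8-/- replicate 1 and 0.56 without WT replicate 1. The 8 TCF, LEF and co-activator genes had −0.42, the 7 nuclear repressors −0.37 and the 9 general targets −0.46, or −0.24, −0.15 and −0.39 after quantile normalization. The 7 nuclear repressors include the deleted gene Chd8, at −0.95, so the design itself lowers their median. Of these 7 genes, 3 had a positive log2 fold change. The medians of the receptors and of the general targets are the values of Lrp6 and Lef1 alone, both among the components. With a mean of at least 5 TPM required, the medians of these lists were −0.13 and −0.17.

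Of the nuclear genes, Crebbp and Ep300, co-activators that beta-catenin recruits, had log2 fold changes of −0.44 and −0.04 (adjusted p = 0.554 and 0.956 from limma), and Aes, a short Groucho-type corepressor, 0.10 (adjusted p = 0.930 from limma). Tcf7l1 and Tcf7l2, the TCF factors of many other tissues, did not pass the filter. Of the general Wnt target genes, 9 of 17 were tested, 5 of them components. Myc had 46.3 and 59.4 TPM in WT and 54.4 and 65.7 TPM in Chd8-/- libraries, and the genotypes overlapped. Among the targets outside the 10 components, Ccnd1 and Ascl2 lay below WT and Cd44 above (log2 fold changes −0.86, −0.74 and 0.35, adjusted p = 0.553, 0.562 and 0.681 from limma), named after their values were seen.

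Genes of naive and central T cells, which are often read beside Tcf7 and Lef1, were described as well. Their list was written with earlier results of these data known, so the shares below describe it and test nothing. At an unadjusted p-value under 0.05, 5 of 10 were lower, against 6.3% of all genes, and 1 higher, against 3.9%. Both Chd8-/- libraries lay below WT in 5, against 27.8% of all genes, and above in 2, Il7r and Satb1, against 14.8%. The genotypes overlapped in the other 3, Ccr7, Slamf6 and Bcl6. Id3, an inhibitor of E protein transcription factors, had 193.8 and 151.9 TPM in WT and 51.4 and 16.9 TPM in Chd8-/- libraries (log2 fold change −2.49, adjusted p = 0.410 from limma). S1pr1, a receptor through which T cells leave lymph nodes, and the transcription factors Klf2 and Bach2 had log2 fold changes of −0.91, −0.78 and −1.41 (adjusted p = 0.406, 0.409 and 0.408 from limma). Il7r, the IL-7 receptor chain, lay on the other side, with 149.7 and 126.7 TPM in WT and 504.5 and 366.8 TPM in Chd8-/- libraries (log2 fold change 1.64, adjusted p = 0.373 from limma).

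**Figure D4:**
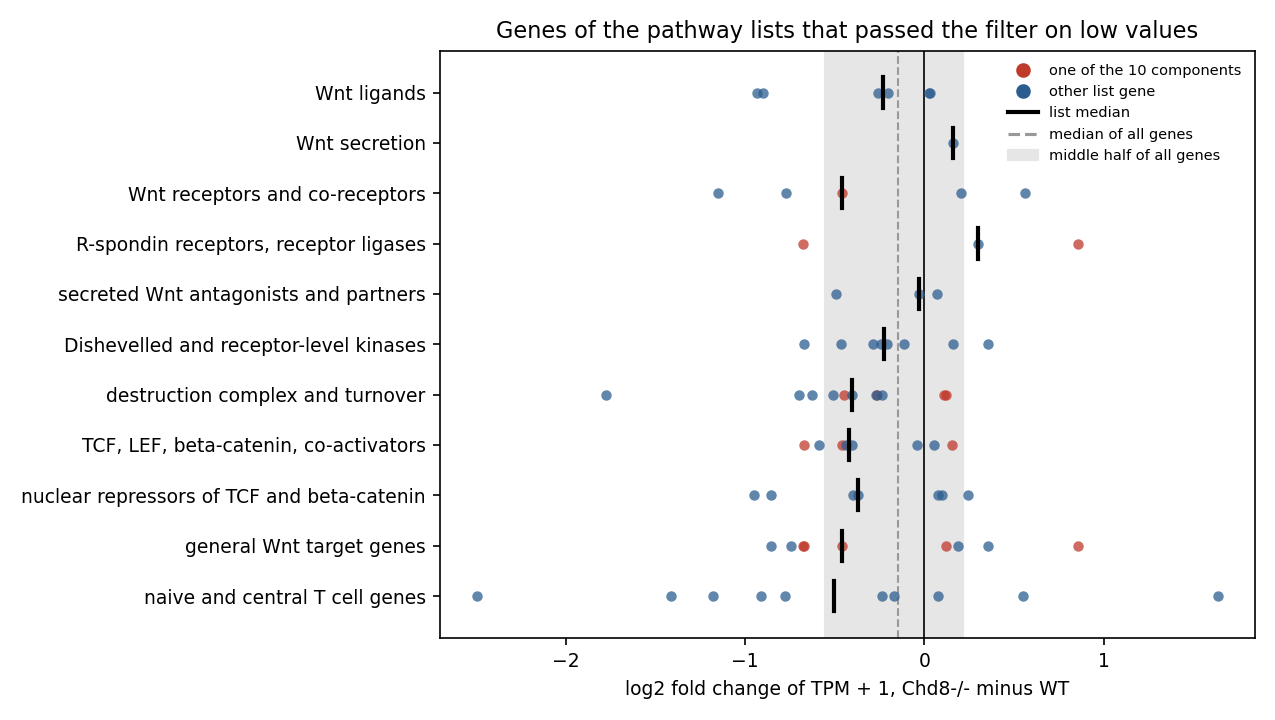
Log2 fold change of TPM + 1, Chd8-/- minus WT, for each list gene that passed the filter, with the 10 components in red, other genes in blue and list medians as black bars. The gray band runs from the lower to the upper quartile of all 15240 genes and the dashed line is their median, −0.15. Rnf43 is the component farthest to the right.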

How the data were processed

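RNA-seq TPM values were deposited by the authors for 4 libraries, 1 per mouse. The authors trimmed reads (Trim Galore 0.4.2, cutadapt 1.9.1), aligned them to mm10 with STAR 2.6.1e, removed duplicates with sambamba, and counted RefSeq genes with featureCounts 1.6.2, and the deposited TPM are rounded to 0.1. The depth is unknown, so no counting interval is given. Of 35869 entries, 4 under repeated names were left out. Genes with at least 1 TPM in 2 or more libraries were compared as log2(TPM + 1), which understates changes of low genes, with limma 3.58.1 in R 4.3.3. The fit was checked on simulated data with planted changes larger than that of any component, so the check does not cover changes of their size. Tables and figures used Python 3.11.15, pandas 2.3.3, numpy 2.4.6 and matplotlib 3.10.9.

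The members and lists were chosen with earlier results of these data known. Named genes were all members, up to 4 per list in order of p under 0.05, up to 4 per list above 50 TPM, the top gene of each marker list, and Chd8, and others are marked or given as members of a counted list. The ATAC-seq and CHIP-seq tables give peaks in mm39 without gene names and were not used, since the annotation used is GRCm38, so their planned comparisons were not run. P-values of limma set a difference against the spread between 2 mice per genotype, moderated by the spread of other genes of similar level. They therefore do not rest on a gene's own 4 libraries alone. The alternatives added 0.1 or 5 TPM, dropped the filter or required a mean of 5 TPM, or used quantile normalization, a replicate block, no trend or each library left out. A gene that the naming rule would give is not reported here.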

Additional observations from a re-analysis of the deposited data

How the results depend on the processing

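No component passed an adjusted p-value of 0.05 under any of the 11 alternatives (0 of 10 in each), and 8 of 10 kept their direction in all. The exceptions arose without Chd8-/- replicate 1, where Axin2 was −0.12 and Ctnnb1 −0.002. Left out in turn, the libraries gave −0.12 to 0.36 for Axin2 and −0.002 to 0.31 for Ctnnb1. At an unadjusted p-value under 0.05, Tcf7 remained in 8 of 11 alternatives, Rnf43 in 6 and Znrf3 in 4, and 0 components without the mean-variance trend or without either WT library. The median over the pathway lists was 0.00 without a filter, −0.40 with 0.1 TPM added and −0.11 after quantile normalization, and −0.37 to −0.25 with each library left out. Over all genes, 1768 lay at a log2 fold change of −1 or less and 781 at 1 or more. The first count was 1149 at a mean of 5 TPM, 690 with 5 TPM added and 1447 to 3107 with a library left out. The other was 362 with 5 TPM added and 989 to 1371 with a library left out, and both were highest without Chd8-/- replicate 1. Quantile normalization gave 1231 and 1146. Adjusted p-values under 0.05 were reached by 2 genes at a mean of 5 TPM and by 415 without a filter, none of them a component. The causes were not tested.

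Same-numbered libraries share only a number: the deviations of replicate 1 from replicate 2 correlated at −0.0117 between the genotypes across genes, and nothing in the labels pairs them. With the replicate block, 0 genes were called, the smallest adjusted p-value was 0.552, and Tcf7 was the component under an unadjusted p-value of 0.05. The alternatives planned for the ATAC-seq and CHIP-seq peaks were not run. A design of 2 mice per genotype and an unknown depth limit every value here.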

Other observations

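A few pathway genes outside the 10 components differed widely between the Chd8-/- libraries, and were named after their values were seen. Amer1, an APC-binding membrane protein, was listed at 21.1 TPM in Chd8-/- replicate 1 and 4.1 TPM in replicate 2, against 32.4 and 38.7 TPM in WT Tregs, so that both Chd8-/- libraries lay below WT. Lrp5, the second co-receptor, was listed at 0.8 and 5.9 TPM in the Chd8-/- libraries and at 1.2 and 1.6 TPM in WT. Dvl1 was listed at 2.6 and 0.5 TPM against 2.6 and 2.8 TPM, and for Lrp5 and Dvl1 the genotypes overlapped. The higher Lrp5 value and the lower Amer1 and Dvl1 values belong to Chd8-/- replicate 2, the library with the most erythroid and myeloid RNA. The part of those cells was not tested.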
